A study of Mus musculus with 8 samples.

Results

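Satb1 and 7 other genes of nuclear factors that shape the T cell genome (Bach2, Bcl11b, Gata3, Runx1, Runx3, Ets1 and Tcf12) were followed in CD8 memory T cell clones that had expanded with age. The members were taken by gene symbol from the platform annotation. All 8 genes were found, of 18194 genes that have a probe set with a single symbol, and they hold 30 of the 45101 probe sets. A probe set is a group of short array probes against one transcript. Satb1 was chosen by its measured paired differences, expansion against polyclonal cells in the 2 classes of expansion, in an earlier look at these arrays. That contrast is therefore a description here, without a test, and the other comparisons share its arrays.

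SATB1 is a nuclear protein that binds AT-rich DNA, gathers distant chromatin into loops and recruits remodelling and histone-modifying enzymes. It is abundant in thymocytes and naive T cells. BACH2 is a repressor that holds memory T cells back from effector differentiation, BCL11B is a zinc finger factor that fixes commitment to the T lineage, and GATA3 is a zinc finger factor of T cell development. RUNX1 and RUNX3 bind DNA with the partner CBFB, and RUNX3 silences Cd4 in CD8 cells. ETS1 is a winged helix activator of T cell genes, and TCF12, also called HEB, is a helix-loop-helix E protein that recognises E-box sequences.

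RNA came from 8 sorted samples of 4 female mice, a clonal expansion and polyclonal memory cells from each animal. An expansion is a population of CD8 T cells that share a T cell receptor V beta chain and fill much of the memory compartment of an old mouse. Age was 20 months in mice 1 and 2, and 23 months in mice 3 and 4. The strain was B10.BR for mouse 4 and C57BL/10SnJ for the others. All samples were CD8+ CD122+ MHC II- cells of spleen and lymph nodes, sorted from animals that had received no treatment the labels record. Expansions 1 to 4 carried Vb3, Vb8.1/8.2, Vb8.3 and Vb14, and each polyclonal sample lacked the chain of its own partner. Expansion 1 belongs to a class with high integrin alpha4 (alpha4-high, n = 1) and expansions 2, 3 and 4 to the alpha4-low class (n = 3). Each expansion is a different clone, and 1 alpha4-high clone cannot stand for its class. Samples are numbered and paired by their titles; the descriptions number expansions 3 and 4 as 4 and 5, and strain, age and V beta chain match within each pair as used here.

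Values are array signals on a linear scale, with no unit, that were made with MAS5 and scaled to the same trimmed mean on every array. The array medians lay between 46.5 and 75.1, and the background level, taken from 27 probe sets for bacterial genes, was between 33.7 and 61.9. Sort purity was 91 to 98% for expansions. It was 97% for polyclonal samples 1 and 4 but 75% and 66% for polyclonal samples 2 and 3. All 8 listed CD8 T cell markers lay above background on every array. The CD4 T cell marker Cd4 did so on 2 of 8 arrays (polyclonal samples 2 and 3). Other markers of that list did so on 8 (Zbtb7b), 7 (Cd40lg) and 6 (Foxp3). The NK cell marker Ncr1 did so on 0, Tyrobp on 6 and Fcer1g on 5. The 7 myeloid markers had a summed signal of 1528 to 3738 in expansions, highest in expansion 1. In polyclonal samples it was 894 to 2391. Of the 8 B cell markers on the array 4 to 8 were above background per sample, with a summed signal of 3139 to 4141 in expansions and 2241 to 4541 in polyclonal samples. In bulk samples fewer cells of a type and less RNA per cell cannot be told apart. The array of expansion 4 has another scanner software record than the other 7, and an effect of that record cannot be told apart from the sample.

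Because the members include factors with known DNA motifs, the 250 bases before each RefSeq start of the members were read from the RefSeq promoter table (GRCm38.p6). It holds 15 such windows for 7 of the genes, of which Satb1 has 5; Ets1 is not in it. Motifs were searched on both strands. They were GGAAGT for the ETS factor family, TGTGGT for the RUNX proteins, AGATAA for zinc fingers like GATA3, CAGCTG for the first of the E-box forms, CAGGTG for the other E-box form, and TGANTCA for BACH proteins and their AP-1 relatives. No match overlapped another in the windows printed. At least 1 match was found in 6 of the 15 windows and in 2 of the 5 Satb1 windows. The share of all windows with any of the motifs was not counted, so these counts cannot be read as many or few. Of 32817 windows of the same length, 19.7% hold the ETS motif, 14.0% the RUNX, 9.99% the GATA, 13.0% and 17.2% the E-box motifs in the order given, and 6.75% the BACH motif. The Satb1 window before the most upstream start is shown because it lies before the whole gene, the window with the most matches because it holds motifs of the ETS and E-box families, and the first Runx3 window because it holds 2 RUNX motifs. Capitals mark the matches, and all run 5′ to 3′ in the sense of the gene.
Satb1 most upstream start, chr17:51833291-51833540, minus strand: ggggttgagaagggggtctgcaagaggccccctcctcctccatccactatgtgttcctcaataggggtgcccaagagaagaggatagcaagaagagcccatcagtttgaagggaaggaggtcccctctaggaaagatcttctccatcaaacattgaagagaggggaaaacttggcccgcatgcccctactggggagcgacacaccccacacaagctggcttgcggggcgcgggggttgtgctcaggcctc
Satb1 start with the most matches, chr17:51826589-51826838, minus strand: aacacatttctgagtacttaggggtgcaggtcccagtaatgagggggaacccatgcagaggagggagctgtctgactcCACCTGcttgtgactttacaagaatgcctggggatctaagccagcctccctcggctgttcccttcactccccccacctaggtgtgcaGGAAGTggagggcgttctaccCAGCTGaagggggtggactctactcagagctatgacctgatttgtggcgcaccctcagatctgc
Runx3 most upstream start, chr4:135120395-135120644, plus strand: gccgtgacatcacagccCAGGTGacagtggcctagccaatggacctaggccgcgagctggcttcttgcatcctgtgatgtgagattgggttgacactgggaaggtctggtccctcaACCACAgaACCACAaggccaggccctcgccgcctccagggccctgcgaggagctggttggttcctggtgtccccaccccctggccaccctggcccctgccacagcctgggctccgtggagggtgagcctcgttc

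The first Satb1 window holds none of the motifs. In the second, the second E-box form, on the reverse strand, begins 172 bases before the start, the ETS motif 85 bases and the first E-box form 64 bases before it. In the Runx3 window the RUNX motif, on the reverse strand, begins 134 and 126 bases before the start, and an E-box 233 bases before it. A match is a description of letters, and no binding was measured in these samples.

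Satb1 set expansion 1 apart from the other 7 arrays in every one of its 5 probe sets. The brightest (1416008_at) read 1360.5 in expansion 1 and 21208 in the polyclonal cells of mouse 1. In mouse 2 it read 27314 in the expansion and 19771 in its partner, in mouse 3 24261 and 12576, and in mouse 4 29585 and 19623. Expansion 1 was thus the lowest array, and the 3 alpha4-low expansions were the 3 highest. Their mean was 27053 ± 2672 (SD, n = 3), against 18295 ± 3879 (SD, n = 4) in the polyclonal samples. This was the 1 tested probe set of the 25 among the members in which all 3 alpha4-low expansions lay above all 4 polyclonal samples, as 2.17% of all probe sets did. Satb1 was chosen on paired differences of these same arrays, so that count is a description only. The 3 alpha4-low expansions all lay below the polyclonal samples in 0 of 25, against 2.3% of all. In 0 of 25 were all 4 expansions apart from all 4 polyclonal samples, against 1.35%. On log2(signal + 5), the scale of all differences here, expansion minus partner was -3.96 in mouse 1 and 0.47, 0.95 and 0.59 in mice 2 to 4.

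**Figure D1:**
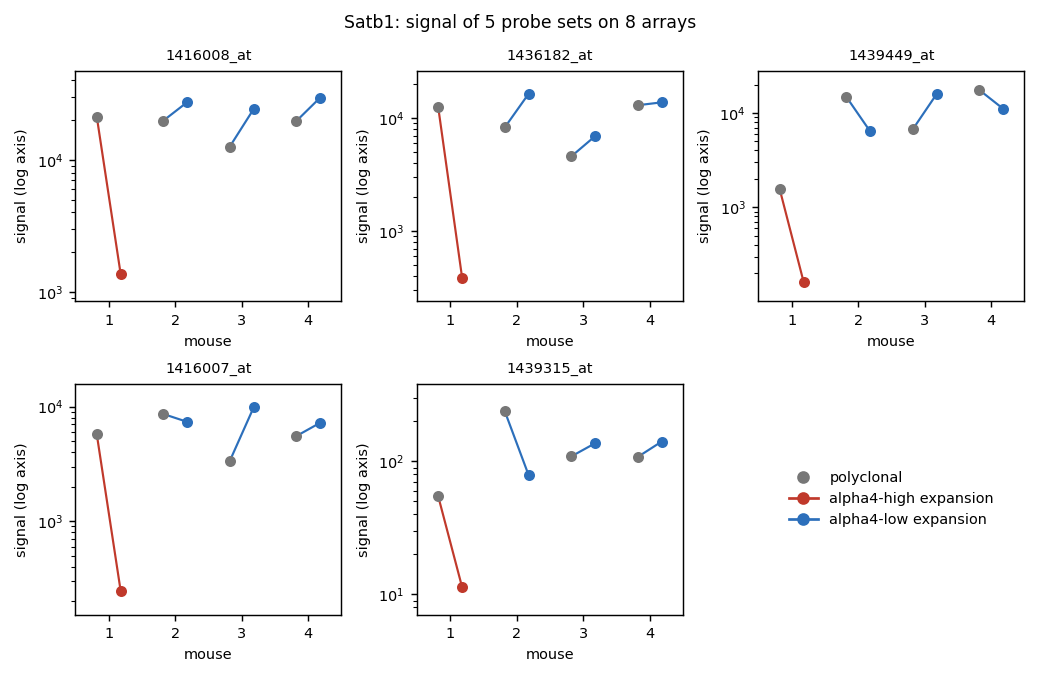
Signal (log axis) of the 5 Satb1 probe sets by mouse, with the polyclonal sample (grey) joined to the expansion of the same mouse (red, alpha4-high; blue, alpha4-low). In each panel expansion 1 is the lowest of the 8 arrays, while the blue lines run in both directions in 3 of the panels.

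The other 4 Satb1 probe sets gave the same order for mouse 1 and a less uniform one for the alpha4-low mice. Probe set 1436182_at read 384 in expansion 1 and 12442 in its partner, 16418 and 8255 in mouse 2, 6925 and 4575 in mouse 3, and 13771 and 12984 in mouse 4. Probe set 1416007_at read 245 and 5745 in mouse 1, 7372 and 8639 in mouse 2, 9877 and 3354 in mouse 3, and 7237 and 5533 in mouse 4. On both, expansion 1 was the lowest array, and the alpha4-low expansions overlapped the polyclonal samples. Probe set 1439449_at read 161 and 1555 in mouse 1, 6387 and 14904 in mouse 2, 15866 and 6691 in mouse 3, and 11089 and 17583 in mouse 4. Here the polyclonal sample of mouse 1 was also low, below every array of the other mice. The dimmest, 1439315_at, read 11.3 in expansion 1, where background was 46.6, and 54.6 to 239 on the other arrays. The size of its difference in mouse 1 is therefore not exact.

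Over the 5 probe sets the paired difference in mouse 1 ran from -5.00 to -1.87 with a median of -3.96, and the 4 probe sets above background in expansion 1 were 9.39-fold to 32.0-fold lower there. In mouse 3 all 5 were higher in the expansion, by 0.31 to 1.56. In mouse 4, 4 were higher and 1 lower (-0.66 to 0.59), and in mouse 2, 2 were higher and 3 lower (-1.54 to 0.99). The probe sets therefore gave 1 direction in mice 1 and 3 and both directions in mice 2 and 4. The alpha4-low difference minus the alpha4-high difference was 4.63, 5.56, 3.02, 5.10 and 1.58 from the brightest to the dimmest probe set. These values chose the gene and carry no test. Over all probe sets 0.0533% passed limma's adjusted p of 0.05 for that difference and 6.57% had an unadjusted p under 0.05. The expansion was lower in mouse 1 and higher in all 3 alpha4-low mice on 2 of the Satb1 probe sets. Among the 20 tested probe sets of the other genes this held for 1, of Tcf12, against 5.2% of all.

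The probe sets did not keep a fixed ratio to one another between arrays. Against the brightest, 1436182_at stood between -1.81 and -0.60 log2 units and 1416007_at between -2.45 and -1.19. For 1439449_at the range was -3.77 to -0.16, with the lowest values in the polyclonal sample (-3.77) and the expansion (-3.04) of mouse 1. The 3′ over middle ratio of the actin control probe sets, a sign of how much of the amplified RNA is 3′ sequence, was 12.5 and 10.5 in these 2 samples and between 9.04 and 16.4 over all arrays; its part in the ratios was not tested.

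Expansion and polyclonal samples were then compared with mouse as a block, over all pairs and over the alpha4-low pairs, in limma fits to 22518 probe sets. Of the 30 member probe sets 25 passed the filter on dim signal, and the 5 others (4 of Runx1 and 1 of Runx3) were at or under background on 3 to 8 arrays. Over all pairs 0 of the 25 passed an adjusted p of 0.05 in limma, where 0% of all probe sets did, and 0 had an unadjusted p under 0.05 (3.25% of all). For the alpha4-low pairs 0 of the 25 passed, where 0.0533% of all did, and 1 had an unadjusted p under 0.05 (5.11% of all). The 5 Satb1 probe sets are in these counts only so that every member is accounted for, since Satb1 was chosen on the same paired differences. For its brightest probe set the all-pairs mean was -0.49, of 1 large negative and 3 positive values, and the alpha4-low mean was 0.67. The alpha4-low mean was 0.26 over the gene's probe sets together and 0.37 with quantile normalization. The other Satb1 probe sets had alpha4-low means of 0.56, -0.21, 0.57 and -0.29, so they did not share a sign.

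**Figure D2:**
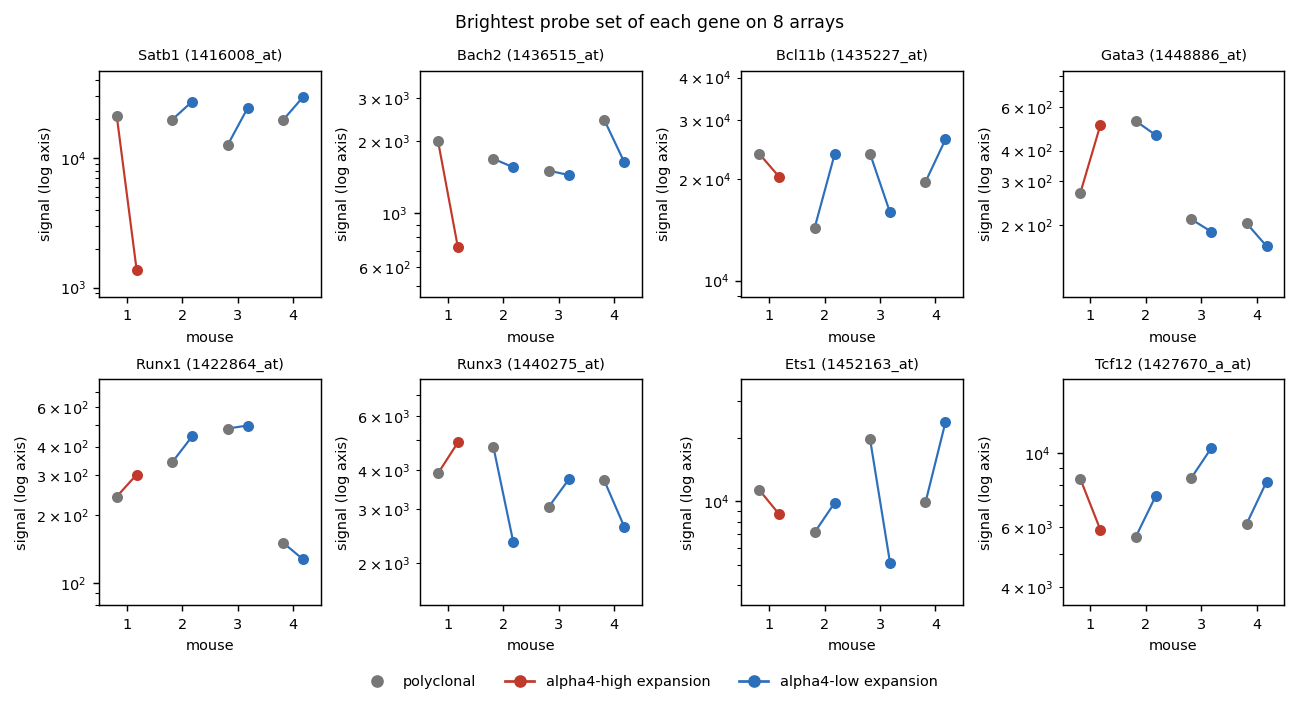
Signal (log axis) of the brightest probe set of each of the 8 genes by mouse, with polyclonal samples in grey and expansions in red (alpha4-high) or blue (alpha4-low). Satb1 and Bach2 have their lowest value in expansion 1, and Ets1 runs in opposite directions in mice 3 and 4.

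Bach2 was also lowest in expansion 1, with a smaller gap. Its brightest probe set (1436515_at) read 723 in expansion 1 and 2004 in its partner. It read 1554 and 1686 in mouse 2, 1443 and 1506 in mouse 3, and 1635 and 2445 in mouse 4. The alpha4-low expansions were at 1544 ± 96.4 (SD, n = 3) and overlapped the polyclonal samples at 1910.3 ± 411 (SD, n = 4). The paired difference was -1.47 in mouse 1 and -0.12, -0.06 and -0.58 in the others, lower in 4 of 4 expansions, with an all-pairs value of -0.56 (SE 0.34, limma adjusted p = 0.9998).

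A second Bach2 probe set (1437667_a_at) was likewise lower in 4 of 4 expansions, with differences of -0.76, -2.14, -0.21 and -0.34 in mice 1 to 4. Its all-pairs difference was -0.86 (SE 0.40, limma adjusted p = 0.9998). The largest was that of mouse 2, where the polyclonal sample read 700.2 and the expansion 155; the other 6 arrays were between 132 and 378. The dimmest Bach2 probe set (1445460_at) was higher in expansion 1 (89.3 against 60.6) and read 25.3 in expansion 3, under background.

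Bcl11b had 4 probe sets that did not share a pattern. The brightest (1435227_at) was between 14339.9 and 26224 on all arrays, a 1.83-fold range without expansion 1, and its lowest and highest values were polyclonal sample 2 and expansion 4. Paired differences were -0.23, 0.72, -0.58 and 0.42, and the all-pairs value was 0.08 (SE 0.27, limma adjusted p = 0.9998), with a negative sign after quantile normalization. Probe set 1452966_at read 1744 to 3426 and 1438784_at 247 to 487, and in both the 2 groups overlapped.

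The fourth Bcl11b probe set (1450339_a_at) was the member with an unadjusted p under 0.05. It read 301 in expansion 1 and 124 in its partner, 337 and 1755 in mouse 2, 277 and 955 in mouse 3, and 39.8 and 60.6 in mouse 4. Its values thus spanned 44.1-fold, with polyclonal samples 2 and 3 above the rest. The alpha4-low difference was -1.56 (SE 0.45, limma adjusted p = 0.741), lower in 3 of 3, while the expansion was higher in mouse 1. Polyclonal samples 2 and 3 are those of 75% and 66% purity. They also had the highest summed signal of the 4 listed plasmacytoid dendritic cell genes, 1101 and 828 against 158 to 319 on the other 6 arrays, with all 4 above background only there. With sort purity in the model the difference was -0.73; the part of other cells in it was not tested.

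Gata3 has 1 probe set on the array. It read 508 in expansion 1 and 270.3 in its partner, 462 and 527 in mouse 2, 188 and 211 in mouse 3, and 164 and 203 in mouse 4. Both samples of mouse 2 were above both samples of mice 3 and 4. The paired difference was 0.90 in mouse 1 and -0.19, -0.17 and -0.30 in the others (alpha4-low -0.22, SE 0.40, limma adjusted p = 0.996).

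Runx1 was low in mouse 4. Its brightest probe set (1422864_at) read 301 and 240.5 in the expansion and partner of mouse 1, 444 and 341 in mouse 2, 496 and 481 in mouse 3, and 127 and 150.5 in mouse 4. Both samples of mouse 4, the only B10.BR animal, were the lowest on this probe set and on 1440878_at (48.4 and 31.7, against 125 to 294 on the other arrays). On 1440878_at polyclonal sample 4 was under its background of 40.8, and expansion 4 was not far above its background of 33.7. Strain, animal and, for expansion 4, scanner record cannot be told apart here. The all-pairs differences were 0.12 (SE 0.32) and 0.05 (SE 0.40), neither of them past the threshold (limma adjusted p = 0.9998 for both). Of the 4 Runx1 probe sets that were not tested, the brightest had 190.2 as its highest value.

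Runx3 had its highest signal in expansion 1. The tested probe set (1440275_at) read 4926 there and 3909 in the partner, 2337 and 4762 in mouse 2, 3738 and 3048 in mouse 3, and 2629 and 3709 in mouse 4. The alpha4-low expansions were at 2902 ± 739 (SD, n = 3) and the polyclonal samples at 3857 ± 707 (SD, n = 4), which overlapped. The alpha4-low difference was -0.41 (SE 0.41, limma adjusted p = 0.989), lower in 2 of 3. The other Runx3 probe set was not above background on any array.

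Ets1 had wide differences within pairs that ran in both directions. The brightest probe set (1452163_at) read 8690.3 in expansion 1 and 11347 in its partner, 9835 and 7120.2 in mouse 2, 5113 and 19810.4 in mouse 3, and 23824 and 9883 in mouse 4. Its paired differences were -0.38, 0.47, -1.95 and 1.27. Probe set 1426725_s_at, which may also detect other transcripts as its suffix marks, gave -0.33, 0.84, -1.99 and 0.88, the same sign in each mouse. Both extremes were thus alpha4-low expansions, the lowest array being expansion 3 and the highest expansion 4. The alpha4-low difference of the brightest probe set was -0.07 (SE 0.51, limma adjusted p = 0.998); it was 0.87 without mouse 3, -0.74 without mouse 4 and 1.66 with sort purity in the model. The 2 dim Ets1 probe sets, at 95.2 to 563 and 45.7 to 139, had other orders, with polyclonal sample 2 the highest in each.

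Tcf12 was lower in expansion 1 than in its partner on 5 of 5 probe sets, with differences of -0.84 to -0.10, where 46.2% of all probe sets were lower. The brightest (1427670_a_at) read 5903 in expansion 1 and 8349.7 in its partner, 7451 and 5634 in mouse 2, 10320.3 and 8416 in mouse 3, and 8215 and 6157 in mouse 4. The 3 alpha4-low expansions were each above their partner, with a difference of 0.37 (SE 0.35, limma adjusted p = 0.989), while the groups overlapped.

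Probe set 1439209_at of Tcf12 read 96.1 and 176 in mouse 1 but 627 to 1597 in mice 2 to 4, so that both samples of mouse 1 stood apart, as they did on 1439449_at of Satb1. On 1439619_at the samples of mouse 1 were again the lowest 2, at 55.1 and 63.2 against 111 to 286. Probe sets 1421908_a_at and 1446294_at were lower in 4 of 4 expansions by small amounts, with all-pairs differences of -0.34 (SE 0.32) and -0.24 (SE 0.35), and did not pass (limma adjusted p = 0.9998 for both).

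**Figure D3:**
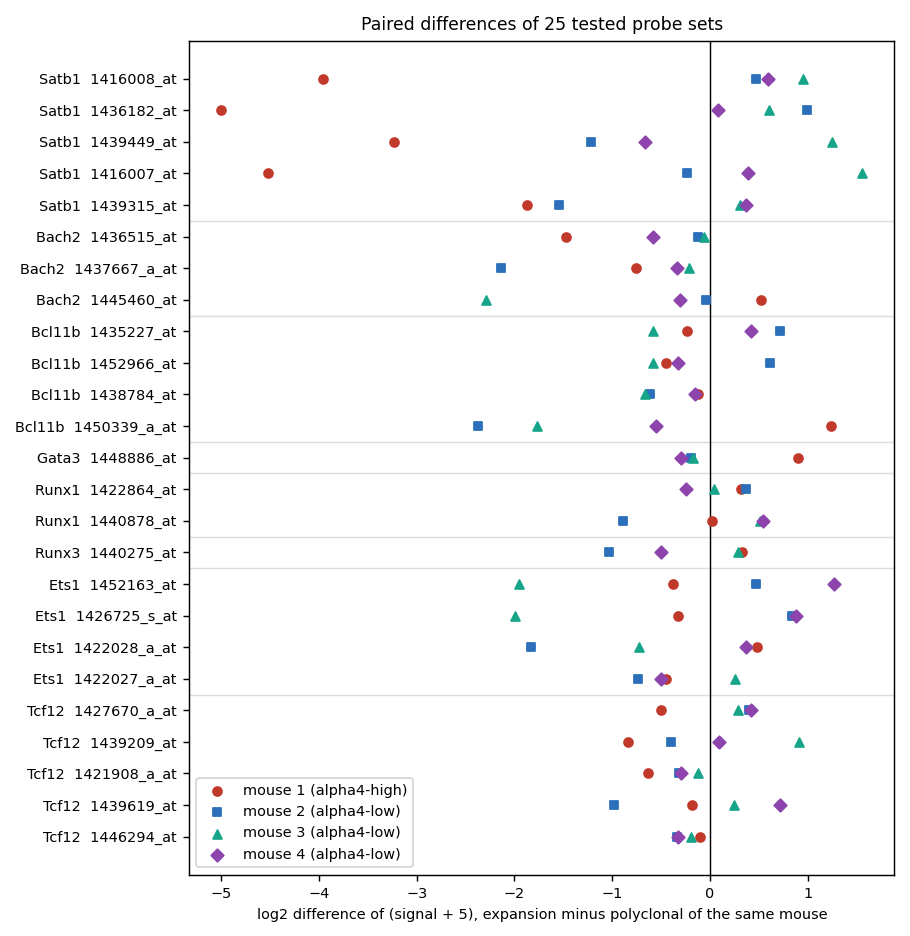
Log2 difference of (signal + 5), expansion minus polyclonal sample of the same mouse, for the 25 tested probe sets of the 8 genes, with 1 symbol per mouse. The 5 Satb1 probe sets are the leftmost points of mouse 1, from -5.00 to -1.87, and those of the other genes in mouse 1 run from -1.47 to 1.24.

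Most probe sets of the other members did not have the low signal of Satb1 in expansion 1. Of the 20 tested probe sets of the other 7 genes 1 was lower by more than 1 log2 unit in mouse 1 (Bach2, -1.47) and 1 higher (Bcl11b, 1.24), where 9.52% and 12.0% of all probe sets were. Expansion 1 was the lowest of the 8 arrays for 6 of the 20, where 18.3% of all probe sets had their lowest value there. Lower values in 4 of 4 expansions were seen for 5 of the 20 (2 of Bach2, 2 of Tcf12 and 1 of Bcl11b), against 6.05% of all, and higher values in 4 of 4 for 0, against 4.79%. Mouse 1 ran opposite to all 3 alpha4-low mice in 4 of the 20, against 14.2%. Probe sets of 1 gene share their RNA, so these counts are not counts of independent genes.

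The genes whose profile over the 8 arrays was most like that of Satb1 were sought by the root mean square difference of centred log2 values from its brightest probe set. The nearest were Sh3bp5 (0.17), Rreb1 (0.24), Il18r1 (0.29), Filip1l (0.30), Zbtb10 (0.31), Sbf2 (0.33), Yes1 (0.34) and Rgs10 (0.34), where the median over all tested probe sets was 1.46. Without expansion 1 that median was 0.71, and the 8 genes stood at 0.17 (Sh3bp5) to 0.33 (Zbtb10 and Yes1). The genes were chosen on distances that include these same arrays, so their small values here follow in part from the choice. Over all 8 arrays the other Satb1 probe sets stood at 0.37 (1416007_at), 0.45 (1436182_at), 0.76 (1439315_at) and 1.22 (1439449_at). Probe sets of Tcf12 (1439209_at, 0.98, and 1439619_at, 1.11) and the brightest of Bach2 (1.0) were nearer than the last of these.

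Sh3bp5, the gene of an SH3 domain-binding protein, read 773 in expansion 1 and 11318 in its partner, and 6671 to 14465 on the other 6 arrays. Il18r1, which encodes a chain of the interleukin-18 receptor, read 3504 and 26651 in mouse 1, and 24252 to 47644 elsewhere. Rreb1, a zinc finger factor gene, read 187 and 2769 in mouse 1, and 1698 to 3253 elsewhere. In all 3 the expansion of mouse 1 was the lowest array by a wide margin. This follows from the choice by likeness to Satb1 and is not a separate result. Zbtb10 and Yes1 were under background in expansion 1. Other tested probe sets of Sh3bp5 (0.91 and 1.21) and of Rreb1 (1.0 and 1.39) were farther from Satb1. So were those of Zbtb10 (0.93 and 1.63), Sbf2 (1.13 and 1.46) and Yes1 (0.89, 0.5 and 1.07). The nearest 5% of all tested probe sets reached to 1.0, so some of these were still among the nearer ones. Il18r1, Filip1l and Rgs10 have no other tested probe set.

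**Figure D4:**
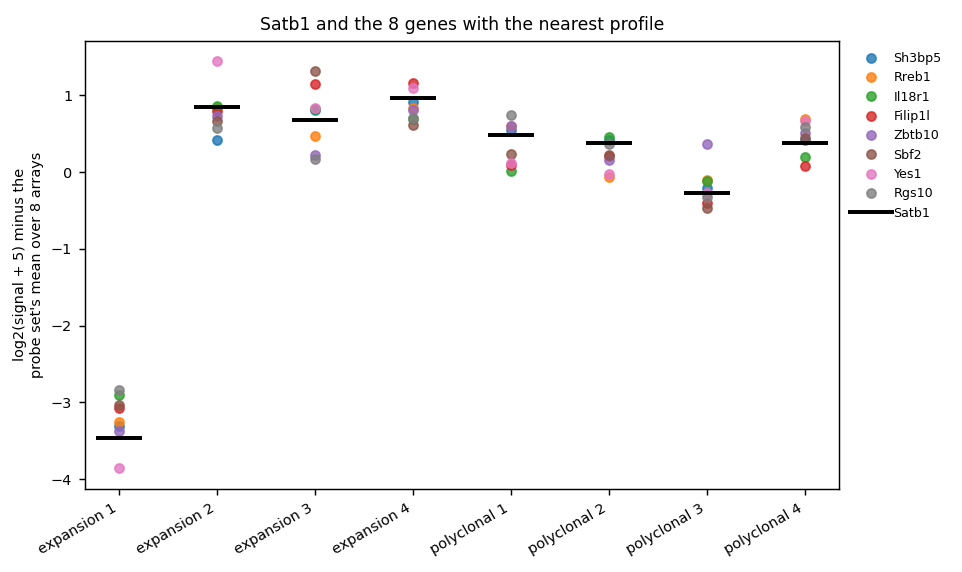
Log2(signal + 5) minus each probe set's own mean over the 8 arrays, for the brightest Satb1 probe set (black bars) and the 8 genes nearest to it (coloured points). All 9 have their lowest value in expansion 1, which follows from the choice by likeness to Satb1, and the other arrays lie within a narrow band.

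Genes around the members were read from 6 lists, each gene by its brightest tested probe set, beside all 10407 tested genes, of which 50.6% had a lower mean in expansions (median -0.01) over all pairs and 52.2% in the alpha4-low pairs (median -0.03). In mouse 1 44.5% were lower in the expansion (median 0.08). In every list 0 genes passed in either comparison in limma, and 3.06% and 5.26% of all tested genes had an unadjusted p under 0.05 in them. Over all pairs these were 2 of 20 family and partner genes, 1 of 9 genes linked to SATB1, 2 of 7 NK-type genes and 0 in the other lists. In the alpha4-low pairs they were 4 of 20, 1 of 9 and 4 of 7 in the same lists, 2 of 9 effector genes and 0 in the others. The NK-type list holds Klra8 and Klra7, whose probe sets can both detect related receptor genes, so its counts are not of independent genes. The lists were also chosen with earlier results of these data known. Over all tested genes 0 passed over all pairs, and 1 higher and 6 lower in the alpha4-low pairs.

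Genes of loop proteins that act with or beside SATB1 ran in both directions. Of 14 tested architecture and cohesin genes 8 were lower and 6 higher over all pairs, with a median of -0.07, and in mouse 1 their median was -0.02. Hnrnpu, whose product is a nuclear scaffold protein, read 25522 in expansion 1 and 34404 in its partner (-0.43). Yy1, a zinc finger looping factor, read 15668 and 14806 (0.08), and Stag2, a cohesin subunit, 17646 and 18045 (-0.03). Named after their values were seen, the cohesin subunit genes Rad21 and Smc1a had differences of -1.49 and 1.29 in mouse 3. Ctcf, the insulator protein gene, named likewise, differed by 0.05 in mouse 1 and had an alpha4-low difference of -0.76 (SE 0.37, limma adjusted p = 0.966), lower in 3 of 3.

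Chromatin partners of SATB1 were 7 lower and 5 higher of 12 over all pairs (median -0.04), and their median in mouse 1 was 0.02. The 3 brightest, Ctnnb1 (beta-catenin), Smarca5 (a remodelling ATPase) and Kat2b (a histone acetyltransferase), had differences of -0.18, 0.10 and -0.53 in mouse 1 and of 0.06, 0.23 and -0.07 over all pairs.

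Families and partners of the members were 12 lower and 8 higher of 20 over all pairs, with a median of -0.14, and their median in mouse 1 was 0.29. Cbfb, the partner of the RUNX proteins, had a difference of 0.23, Id2, an inhibitor of E proteins, one of 0.38 and Ikzf1, the gene of Ikaros, one of -0.11, none past the threshold (limma adjusted p = 0.9998 for each). Chosen after their values were seen, Lef1, an HMG-box factor gene, read 238 in expansion 1 and 1642 in its partner, and Bach1, the relative of Bach2, 3801 and 12305. Both were lower in expansion 1 than on every other array, the next being expansion 3 for Lef1 (326) and polyclonal sample 2 for Bach1 (3995). In mouse 1 9 of the 20 genes were lower in the expansion. Tox, also picked after its values were seen, ran the other way in mouse 1, with 7563 in expansion 1 and 1967 in its partner (1.94). High Tox signal was not confined to expansion 1, since polyclonal sample 3 read 5833, against 176 in expansion 3 (-5.02).

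Genes linked to SATB1 in T cells numbered 15, of which 9 were tested, 5 lower and 4 higher over all pairs (median 0.00). Il7r, the interleukin-7 receptor gene, read 29918 in expansion 1 and 42604 in its partner (-0.51), and Cd8a read 16717 and 17529 (-0.07). Bcl2, a survival gene, read 2470 and 9356 in mouse 1 (-1.92), lower in both samples of that mouse than the 21452 to 34356 of the other 6 arrays. Il7r and Cd8a thus differed less in mouse 1 than Bcl2. Pdcd1, of the same list and named after its values were seen, read 673 in expansion 1 and 176 in its partner. It read 7.05 and 148 in mouse 2, 3.11 and 415 in mouse 3, and 43.7 and 177 in mouse 4. Paired differences of Pdcd1 were 1.91 in mouse 1 and -3.67, -5.7 and -1.9 in mice 2 to 4. It was under background in expansions 2 and 3, so the sizes there are not exact.

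Effector genes linked to BACH2 or RUNX3 were 6 lower and 3 higher of 9 over all pairs (median -0.23) and 9 lower of 9 in the alpha4-low pairs (median -0.29), while in mouse 1 1 of 9 was lower in the expansion and the median was 0.75. Of all tested genes 50.6%, 52.2% and 44.5% were lower in these. The alpha4-low differences of Gzmb, Zeb2 and Itgae were small (-0.02, -0.02 and -0.07). Single pairs also ran in both directions, as for Prdm1 with 1.29, -2.24 and 0.08 in mice 2 to 4. Eomes, Ifng and Tbx21, the 3 brightest, had alpha4-low differences of -0.22, -1.41 and -0.62 (limma adjusted p = 0.994, 0.939 and 0.989).

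Klrg1, an inhibitory receptor gene of effector cells, is named for its difference between classes, the largest among the tested genes of these lists. It read 3668 in expansion 1 and 359 in its partner, 192 and 679 in mouse 2, 142 and 1421 in mouse 3, and 152 and 1168 in mouse 4. Expansion 1 was the highest array and the alpha4-low expansions were the 3 lowest. The alpha4-low difference minus the alpha4-high difference was -5.99, and -6.43 to -4.47 over 12 alternatives. The alpha4-high class has 1 pair, so this value is a description without a test. In the alpha4-low pairs the difference of Klrg1 was -2.66 (SE 0.44). That difference enters the value for which the gene was named, so it too is a description without a test.

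NK-type genes linked to BCL11B were 5 lower and 2 higher of 7 in both comparisons (medians -0.39 and -0.95). Klrd1, Klra8 and Klrk1, all genes of NK cell receptors, had all-pairs differences of 0.10, -3.68 and -0.38 (limma adjusted p = 0.9998, 0.147 and 0.9998). Klra8, whose probe set can detect related receptor genes as its suffix marks, read 49.1 and 441 in mouse 1, 292 and 15079 in mouse 2, 198 and 665 in mouse 3, and 1103 and 21818 in mouse 4. It was lower in 4 of 4 expansions, and in the alpha4-low pairs its difference was -3.90 (SE 0.61, limma adjusted p = 0.0528).

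**Figure D5:**
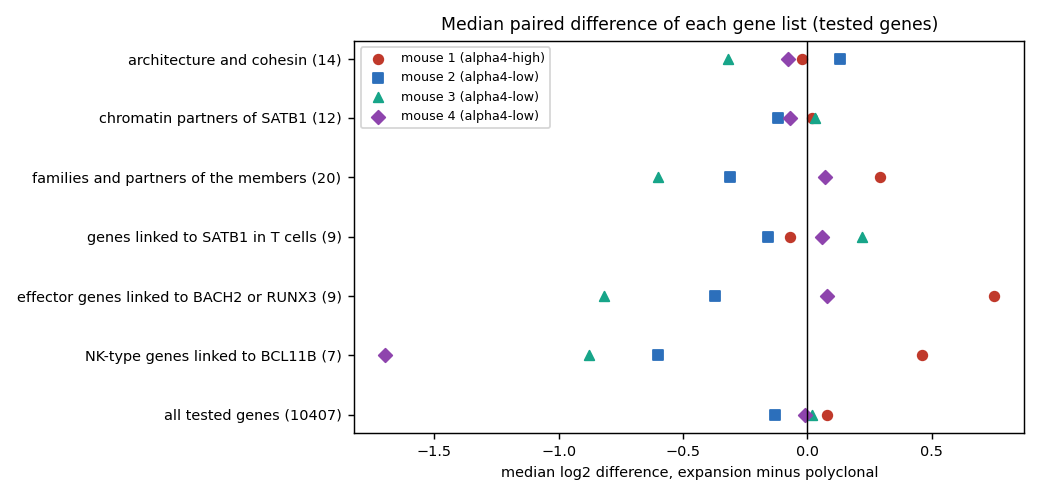
Median log2 difference, expansion minus polyclonal sample of the same mouse, for each of the 6 gene lists and for all tested genes, with the number of tested genes in brackets and 1 symbol per mouse. The loop protein and SATB1 partner lists lie between -0.32 and 0.13 in every mouse, while the effector list stands at 0.75 in mouse 1.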

How the data were processed

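Arrays were Affymetrix Mouse Genome 430 2.0, 1 per sample, and RNA was amplified in 2 rounds before biotin labelling, per the labels' protocols; such amplification favours 3′ ends. The deposited table holds a linear intensity per probe set, made by the authors with MAS5 per the submitters' processing notes, with a 2% trimmed mean of 500 on each array, and no MAS5 version is named in the sources used here. A shift in total RNA per cell is lost in this scaling.

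From it log2(value + 5) was computed, 64 control probe sets were left out, and probe sets whose mean was not above the median (a signal of about 45.3) were removed, leaving 22518. The tool was limma 3.58.1 under R 4.3.3 (lmFit, then eBayes allowing a trend with intensity). Mouse entered as a block, since the series' design pairs the samples of an animal. The all-pairs model had 3 residual degrees of freedom and the model with separate subclass coefficients 2. All p-values are two-sided and adjusted by Benjamini-Hochberg over the 22518 probe sets, and the fits were tested on simulated data. With 4 pairs an exact sign-flip test cannot go below p = 0.125, so none was run. Precision is limited by having 8 arrays.

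The background level is the 95th percentile, on each array, of the signals of 27 bacterial control probe sets. Gene names are those of the platform annotation, only from probe sets with 1 symbol. Named were all member probe sets, the brightest leading for its gene, the 8 genes nearest to Satb1 and, in each list, members past the threshold or else the 3 brightest. Klrg1 was named as well, for its difference between classes. Some other list genes, among them Rad21, Smc1a, Ctcf, Lef1, Bach1, Tox and Pdcd1, were named after their values were seen. The members and lists were chosen with earlier results of these data known. Alternatives covered the pseudocount, filter, scaling, variance trend, block, sort purity, omission of each mouse and the mean of a gene's probe sets. Figures were drawn with matplotlib 3.10.9.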

Additional observations from a re-analysis of the deposited data

Results flagged for a closer look

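In groups of 4, arrays far from the rest on the log2 scale were sought by Dixon's criterion. In the 40 groups of values of the 7 genes other than Satb1, 4 were found; chance gives about 1 in 20 groups. Expansion 1 stood apart on the brightest Bach2 probe set, at 723. Expansion 3 stood apart on Bach2 1445460_at, at 25.3, under background, and expansion 4 on Bcl11b 1450339_a_at, at 39.8. Polyclonal sample 1 stood apart on Tcf12 1439209_at, at 176. Satb1 was chosen on its values, so those past the same criterion are a description only: expansion 1 at 1360.5 (1416008_at) and 245 (1416007_at), and polyclonal sample 3 at 12576 (1416008_at).

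On 4 of the 20 tested probe sets of the genes other than Satb1, mouse 1 ran opposite to all 3 alpha4-low mice, as 14.2% of all probe sets did. The alpha4-low difference minus the alpha4-high difference was 0.87 for Tcf12 (1427670_a_at), -1.40 for Bach2 (1445460_at), -2.81 for Bcl11b (1450339_a_at) and -1.11 for Gata3. The Bcl11b value was -0.91 without the replicate block and -1.68 with sort purity in the model, and that of Tcf12 0.54 without the block. For Satb1, chosen on this contrast, 1416008_at had 4.63 and 1436182_at 5.56. These differences between classes were not tested for the members.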

How the results depend on the processing

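Called probe sets over all pairs numbered 0 (731 at an unadjusted p under 0.05 in limma) and 0 to 14 without 1 mouse each, 14 being the value without mouse 1. The 12 of the alpha4-low pairs became 6 with quantile normalization, 42 with median centring, 0 without an intensity trend, 0 without the replicate block, which otherwise changed no call of a member, and 14 to 157 without 1 mouse each, 138 without mouse 3 and 157 without mouse 4. The 12 of the difference between classes became 0 with pseudocount 1, 51 with pseudocount 50, 25 with no filter on dim probe sets, 0 with quantile normalization, 70 with median centring, 0 without an intensity trend, 143 without the replicate block and 64 to 277 without 1 mouse each (64, 277 and 227 without mice 2, 3 and 4; none can be had without mouse 1). Median centring moved the median class difference of all probe sets by 0.25 and the share of lower values from 54.3% to 43.4%, and quantile normalization moved the median by 0.15. For the brightest Satb1 probe set the class difference was 3.98 to 4.88 over its alternatives, the alpha4-low value 0.26 to 0.77 and the all-pairs value -1.63 (with sort purity) to 0.67.

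The replicate block was main because each pair is 1 mouse. No leading member probe set passed under any alternative in which it was fitted. Signs turned over all pairs for Satb1 without mouse 1 (0.67, and 0.56 for 1436182_at), Gata3 without mouse 1 (-0.22), Runx3 without mouse 2 (0.04), Ets1 with sort purity (0.38) and without mouse 3 (0.45), and Tcf12 with sort purity (-0.03) and as the mean of its probe sets (-0.11). Bcl11b turned with quantile normalization (-0.12), without mouse 2 (-0.13), without mouse 4 (-0.03) and as a mean of probe sets (-0.34), and its probe set 1450339_a_at with sort purity (0.08). In the alpha4-low pairs Bcl11b turned with quantile normalization (-0.08), without mouse 2 (-0.08) and as a mean (-0.49), Runx1 with sort purity (-0.16) and without mouse 2 (-0.10), and Ets1 with sort purity (1.66) and without mouse 3 (0.87). Without 1 mouse each, all-pairs values ran from -0.97 to 0.67 for Satb1 (-1.44 to 0.56 for 1436182_at), -0.13 to 0.30 for Bcl11b, -0.22 to 0.18 for Gata3, -0.41 to 0.04 for Runx3, -0.62 to 0.45 for Ets1, -0.72 to -0.25 for Bach2, 0.07 to 0.37 for Tcf12, 0.04 to 0.25 for Runx1 and -1.56 to -0.36 for 1450339_a_at. Alpha4-low values ran from -0.08 to 0.57 for Bcl11b, -0.10 to 0.21 for Runx1, -0.74 to 0.87 for Ets1, -0.76 to -0.10 for Runx3, -0.35 to -0.09 for Bach2, 0.35 to 0.41 for Tcf12 and -2.07 to -1.16 for 1450339_a_at. The cause of these changes was not tested. Array number, and background for dim probe sets, limit what can be seen.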
